A study of Mus musculus with 104 samples.

Results

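Immediate early genes are transcribed within minutes of a stimulus, before any new protein has to be made, and 10 of them were followed here at their resting levels: Fos, Fosb, Junb, Egr1, Egr2, Egr3, Egr4, Arc, Nr4a1 and Npas4. They are a named list of 10 of the 18193 genes measured. Each gene is represented by 1 probe set, a group of short array probes for 1 transcript: of the probe sets that match a single gene symbol, the one with the highest mean over all 104 arrays was taken. All 10 genes were measured. No rule on their values in any region picked them, but they were chosen with earlier results of these data known.

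The arrays cover 52 regions dissected from untreated male Balb/c mice aged 7 to 8 weeks, with 2 arrays per region. Before sampling the mice spent 2 weeks in a cycle of 12 h light and 12 h dark, and tissue was taken every 4 h over 1 day, in that cycle or in constant darkness. The tissue of the 6 time points was pooled into 1 RNA sample before labelling, so each value is an average over the day. The labels do not say which arrays came from which lighting. Differences between regions or replicates therefore cannot be told apart from differences in lighting. Each region was sampled independently on 2 occasions; no label names separate animals for them, so p-values measure the spread between these arrays, which may be technical. Regions were punched bilaterally from slices of 0.5 mm, which hold neurons, glia and vessels together. In such bulk samples fewer cells of a type and less RNA per cell cannot be told apart. No animal was stimulated on purpose. The labels used here give no order or delay of dissection. Differences of that kind therefore cannot be told apart from differences between regions. Region groups used below are the isocortex (retrosplenial, motor and cingulate cortex, 6 arrays), the hypothalamus (12 regions, 24 arrays), the thalamus (5 regions, 10 arrays), the hippocampal formation (CA1, CA2 and CA3, dentate gyrus and ventral subiculum, 8 arrays), the striatum (lateral and medial caudate putamen and olfactory tubercle, 6 arrays), the cerebellar cortex (vermis and lobe, 4 arrays), and single regions with 2 arrays each.

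In neurons, calcium entering through glutamate receptors and voltage-gated channels activates kinases that phosphorylate transcription factors already bound at these genes, among them CREB at cyclic AMP response elements and SRF at CArG boxes. Most of the proteins made are themselves transcription factors: Fos, Fosb and Junb pair into the AP-1 complex, the Egr proteins are zinc-finger factors, Nr4a1 is an orphan nuclear receptor and Npas4 is a calcium-dependent factor that acts on inhibitory synapses. Arc is the exception, a synaptic protein that drives the internalisation of AMPA receptors, and its mRNA is carried into dendrites. Together they are used in the brain as markers of recently active neurons.

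The promoters are shown first, because the genes are known to share inputs. Whether these sequences bear on the levels across regions was not tested. RefSeq windows of 300 bases, reaching from upstream of the annotated start to just inside the gene (build GRCm38.p6), were found for 7 of the 10 genes, Fos, Fosb, Junb, Egr2, Egr4, Nr4a1 and Npas4. Capitals mark the core of the cyclic AMP response element, TGACG or its reverse complement CGTCA, and in Egr2 also the CArG box. The windows lie at chr12:85473640-85473939 for Fos (plus strand), chr8:84978699-84978998 for Junb (minus strand), chr10:67537619-67537918 for Egr2 (plus strand, 1 of its 5 annotated windows), chr15:101266596-101266895 for Nr4a1 (plus strand) and chr19:4989922-4990221 for Npas4 (minus strand). Each is printed 5′ to 3′ on the gene's own strand.
Fos: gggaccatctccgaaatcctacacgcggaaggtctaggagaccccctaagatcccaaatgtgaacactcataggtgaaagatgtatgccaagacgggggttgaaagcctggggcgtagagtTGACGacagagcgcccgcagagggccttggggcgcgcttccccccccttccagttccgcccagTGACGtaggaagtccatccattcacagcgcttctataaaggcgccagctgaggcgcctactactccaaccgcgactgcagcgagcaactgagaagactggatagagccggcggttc
Junb: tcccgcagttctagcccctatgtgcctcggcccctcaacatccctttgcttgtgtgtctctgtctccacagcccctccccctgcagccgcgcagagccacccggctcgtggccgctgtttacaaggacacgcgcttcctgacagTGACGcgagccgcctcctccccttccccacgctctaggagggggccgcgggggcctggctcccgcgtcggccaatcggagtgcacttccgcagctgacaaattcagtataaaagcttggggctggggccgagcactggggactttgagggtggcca
Egr2: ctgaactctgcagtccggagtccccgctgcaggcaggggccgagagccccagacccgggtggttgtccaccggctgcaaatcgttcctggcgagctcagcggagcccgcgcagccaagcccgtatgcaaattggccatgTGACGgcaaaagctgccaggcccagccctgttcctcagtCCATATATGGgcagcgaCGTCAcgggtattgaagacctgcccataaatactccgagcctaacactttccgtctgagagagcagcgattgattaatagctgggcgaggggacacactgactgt
Nr4a1: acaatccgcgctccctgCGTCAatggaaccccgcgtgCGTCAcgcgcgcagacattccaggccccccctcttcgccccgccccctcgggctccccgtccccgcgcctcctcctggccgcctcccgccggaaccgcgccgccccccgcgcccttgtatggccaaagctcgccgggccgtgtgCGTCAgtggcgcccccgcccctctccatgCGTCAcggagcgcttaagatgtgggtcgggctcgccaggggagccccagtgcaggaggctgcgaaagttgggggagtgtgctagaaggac
Npas4: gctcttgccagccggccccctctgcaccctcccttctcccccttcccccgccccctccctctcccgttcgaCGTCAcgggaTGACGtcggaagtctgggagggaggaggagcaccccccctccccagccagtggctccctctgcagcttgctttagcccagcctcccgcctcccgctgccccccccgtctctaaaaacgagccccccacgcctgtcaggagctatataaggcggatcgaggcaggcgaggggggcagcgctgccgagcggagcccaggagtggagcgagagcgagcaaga

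The core, searched on both strands, was present in 7 of the 7 genes with a window and in 20.9% of the 32544 distinct mouse promoter windows of the same length. Egr2 counts as holding a motif if any of its 5 windows does, and 3 of them held the core. Nr4a1 held 4 copies, the first base of the nearest lying at -40 from the start, and Fos held 2, at -129 and -66. The full palindrome TGACGTCA was in 0 of the 7 and in 1.8% of all windows. A CArG box was found in 1 of the 7, Egr2, against 1.64% of all windows. The sequence GCGGGGGCG or GCGTGGGCG, to which Egr proteins bind, was in the windows of Fosb and Nr4a1, against 3.5% of all windows, and TATAAA in those of Fos, at -33, and Junb, at the start itself, against 13.6%. In Nr4a1 the Egr sequence, at -60, lies between the cores at -69 and -40 without overlapping them. Such matches describe the letters of these windows, not binding, and a motif that was not found may lie outside them.

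Values are log2 intensities, in which a difference of 1 is a 2-fold difference. A gene was called different when its p from limma, adjusted by Benjamini-Hochberg over all 18193 genes, was under 0.05 and the difference was at least 2-fold. Fosb, Junb, Egr2, Egr4 and Npas4 had means below the median of all gene means, 8.14, so their differences may be understated where a region approaches background. The array medians ran from 7.33 to 7.46. Overlap between the arrays of region groups is described below for named genes, and its share over all genes was not counted. Marker genes matched most labels, with Drd1 and Ppp1r1b highest in the 3 striatal regions, Prox1 highest in dentate gyrus, Gabra6 and Pcp2 highest in cerebellar cortex and Vip highest in suprachiasmatic nucleus. The arrays labelled retina also held pituitary hormone mRNA, with Gh at 14.69 and Prl at 13.89 on average, and had the highest mean level of a fibroblast and meningeal list, 11.50. They also held photoreceptor mRNA, with Gnat1 at 12.16. Their 2 arrays differed 2-fold from each other for 837 genes, 4.6% of all, the most of any region, with cingulate cortex next at 114. The SEs below come from a spread shared over all regions and may be too small for these arrays. The arrays labelled lateral hypothalamus lacked that area's defining peptides, Pmch and Hcrt, which were highest in those labelled dorsomedial hypothalamic nucleus. These 3 regions are therefore called the arrays labelled retina, lateral hypothalamus and dorsomedial hypothalamic nucleus below. Without the arrays labelled lateral hypothalamus, isocortex against hypothalamus still gave 5 of the 10 genes.

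Resting levels of 9 of the 10 genes differed among the 52 regions, by an F test with a range of at least 2-fold, against 60.3% of all genes. At any range all 10 passed, against 95.1% of all genes. The median range of the 10 was 2.76, against 1.24 over all genes. Egr1 had the widest range, 4.88, and Egr3, by the probe set taken, the narrowest, 0.74. Forebrain regions led for 9 of the genes: the lateral caudate putamen was highest for Junb, Egr1, Egr2, Egr3 and Egr4, CA1 for Arc and Nr4a1, and the posterior olfactory bulb for Fosb and Npas4. Fos alone peaked in the hindbrain, in the pontine nucleus. The cerebellar nucleus was among the 5 lowest regions for 7 of the genes, with a median rank of 50 of 52, where the lateral caudate putamen had a median rank of 1.5. Adjacent regions in each order mostly did not separate: in 44 to 51 of the 51 neighbouring pairs the arrays overlapped.

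**Figure D1:**
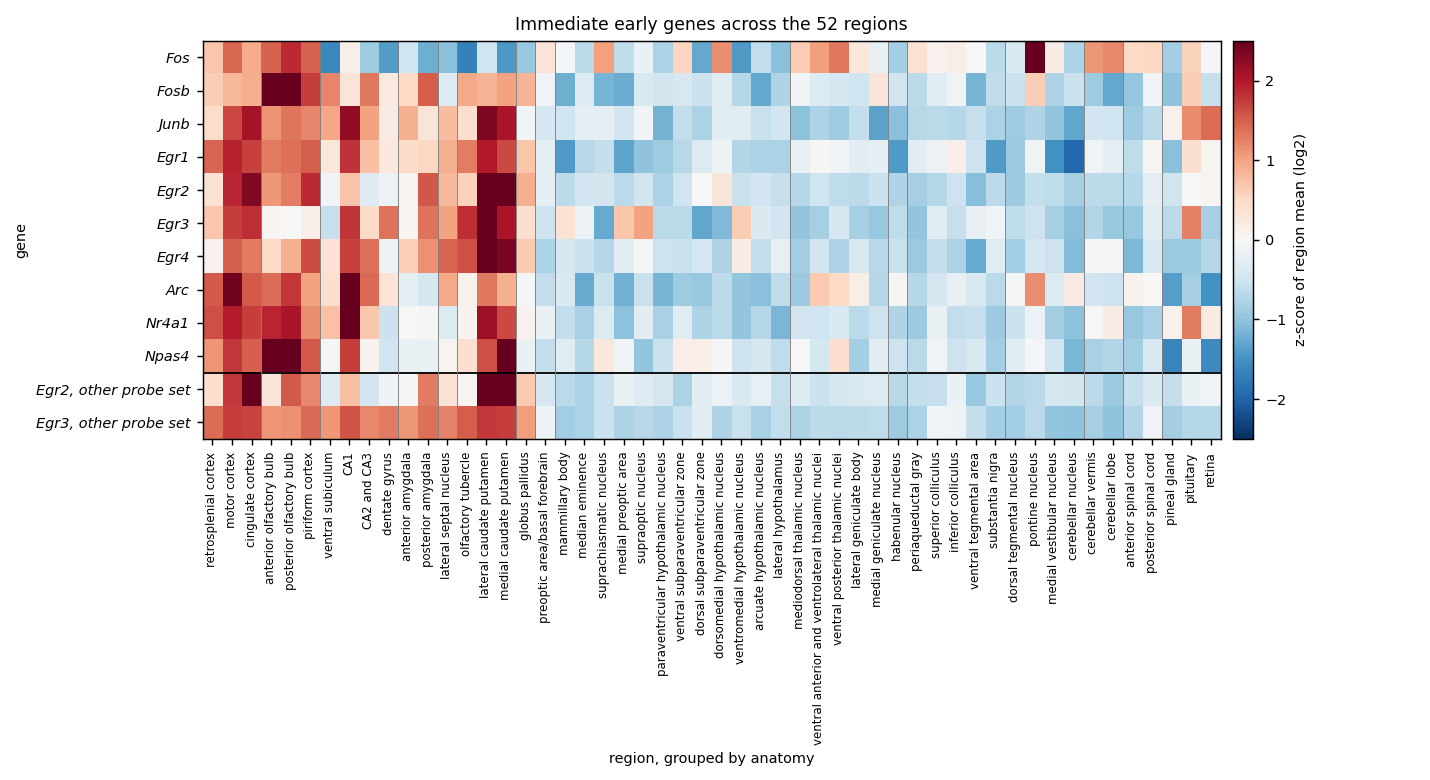
Region means (log2) of the 10 genes over the 52 regions grouped by anatomy, as z-scores within each gene, with the other probe sets of Egr2 and Egr3 below the line. Cortex, olfactory bulb, CA1 and caudate putamen are red for most genes, while the Fos row has its highest value in the pontine nucleus and its lowest in the olfactory tubercle.

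Fos, the AP-1 subunit most used as an activity marker, read 10.39 and 10.89 on the 2 arrays of the pontine nucleus, a relay from cortex to cerebellum. The posterior olfactory bulb followed at 10.87 and 9.58, and the piriform cortex at 9.74 and 10.25. An array of each part of the olfactory bulb reached the pontine nucleus, so it was not separated from the next in order, while both arrays of the piriform cortex lay below it. At the other end, the olfactory tubercle read 7.69 and 8.31, the ventral subiculum 8.35 and 7.72 and the medial caudate putamen 8.07 and 8.25. All of these low arrays lay below every array of the pontine nucleus, and the F test gave an adjusted p of 9.13e-17 for a range of 2.64. Ventral posterior thalamus (9.80 and 9.98), cerebellar lobe (10.11 and 9.52) and the arrays labelled dorsomedial hypothalamic nucleus (9.49 and 10.08) were also among the 8 highest regions for Fos.

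Fosb, whose splice product persists after repeated stimulation, peaked in the posterior olfactory bulb at 7.69 and 7.38 and the anterior olfactory bulb at 7.74 and 7.10. Its lowest region was the cerebellar lobe, 6.04 and 5.81, and the 12 hypothalamic regions lay within 5.93 to 6.28 as means. Junb, the AP-1 partner that can restrain Jun, read 9.30 and 9.24 in the lateral caudate putamen and 9.14 and 9.20 in CA1. Its lowest region was the medial geniculate nucleus, at 6.34 and 5.98, and no array of it reached the caudate putamen. For both genes the 5 highest regions were telencephalic.

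Egr1, the zinc-finger factor also named Zif268, read 12.73 and 12.80 in the lateral caudate putamen, 12.58 and 12.78 in motor cortex and 12.44 and 12.63 in CA1. Its lowest region was the cerebellar nucleus at 7.71 and 8.07, a 29.4-fold range of means, with the medial vestibular nucleus next at 8.38 and 8.50. These ends did not overlap, and the mammillary body, habenula and substantia nigra, each with a mean of 8.56, also lay near the bottom. Egr2, which also directs myelination in peripheral nerve, was highest in the lateral and medial caudate putamen, at 8.17 and 8.35 and at 8.30 and 8.16. Its lowest region was the ventral tegmental area, 5.61 and 5.17, and Egr4 was lowest there too, at 6.93 and 6.97. Egr4 peaked in the lateral caudate putamen at 8.51 and 8.90, with the medial caudate putamen at 7.95 and 8.76.

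For Egr3, known for its role in muscle spindles, the probe set decided the result. The probe set taken had the higher overall mean but moved little, from 8.01 in the dorsal subparaventricular zone to 8.76 in the lateral caudate putamen. The gene's other probe set ran from 4.64 in the cerebellar lobe to 11.77 in the lateral caudate putamen, a range of 7.13, with an adjusted p of 3.03e-45 from the F test. Both placed the lateral and medial caudate putamen first and second. The other probe set of Egr2 had a range of 1.87, against 2.88 for the one taken, and also had the ventral tegmental area lowest. The Egr3 alternative was added after the data had been seen. The regions lowest for Egr2, Egr4 and the Egr3 probe set taken also stood out in the arrays' quality controls. The log2 ratio of the 3′ to the 5′ actin probe sets was 1.45 in the ventral tegmental area and 1.77 in the dorsal subparaventricular zone, the highest of 51 regions, against a median of 0.92. The hybridisation controls read 8.07 and 7.75 there, against a median of 9.97. Over the 51 regions the r of a gene with the actin ratio ran from -0.38 (Egr3) to 0.04 (Fosb), with Egr4 at -0.35, and with the hybridisation controls from -0.14 (Fos) to 0.37 (Egr3). Their part in these values was not tested. The controls of the preoptic area were not used, because their rows did not line up with those of the other arrays.

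Arc read 10.84 and 11.27 in CA1, the highest of any region, then 10.14 and 11.19 in motor cortex. The arrays labelled retina (6.89 and 7.43) and the pineal gland (7.14 and 7.43) were lowest, and within the brain the median eminence (7.52 and 7.26). Its pontine nucleus value, 9.57 and 9.51, was rank 9 of 52, and the next hindbrain region, the cerebellar nucleus, had a mean of 8.70. Nr4a1 was highest in CA1 at 11.77 and 12.16 and lowest, at 8.92 and 9.16, in those labelled lateral hypothalamus, with no overlap between these regions. Npas4 read 8.20 and 6.91 in the posterior olfactory bulb and 7.89 and 6.88 in the anterior, while the medial caudate putamen read 7.31 and 7.42. Its top rank rested on replicate 1 of the bulb, since the replicate 2 arrays of both parts were below both arrays of the medial caudate putamen.

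**Figure D2:**
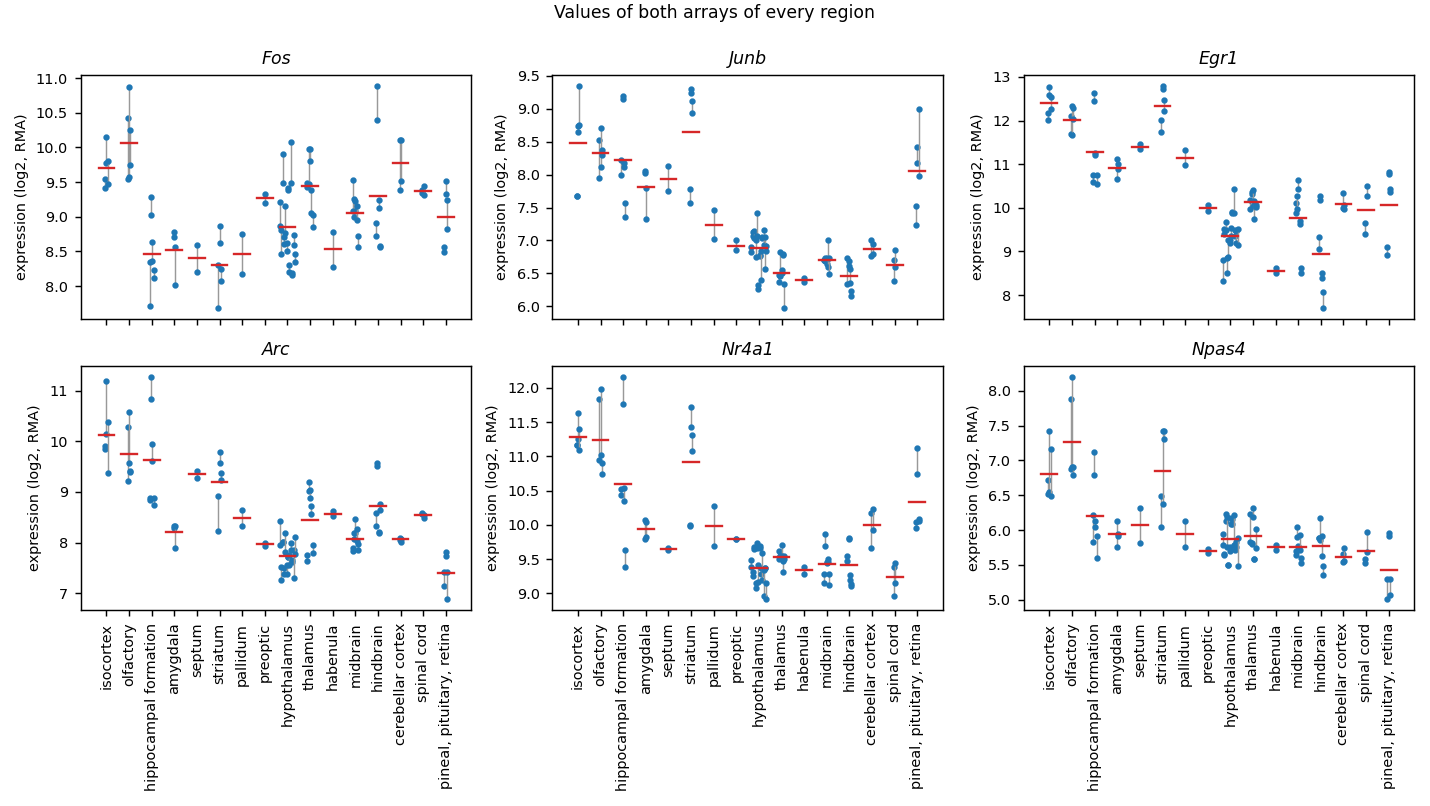
Log2 expression of 6 of the genes on both arrays of every region (points, joined by a grey line within a region), by anatomical group, with the mean of the region means as a red bar. Egr1, Junb and Nr4a1 lie higher in isocortex, olfactory regions and striatum than in hypothalamus and hindbrain, whereas Fos has a mean of 8.30 in striatum and 9.45 in thalamus.

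In the comparison of isocortex with hypothalamus, 5 of the 10 genes were higher in isocortex and 0 lower, against 2.69% higher and 2.06% lower of all genes. All 10 had a positive difference that passed the adjusted p at any fold, where 52.8% of all genes passed in either direction. The median difference was 1.17, against 0.00 over all genes. With region means as the samples limma passed all but Fos at any fold (adjusted p = 0.0652). Egr1 lay between 12.02 and 12.78 (median 12.40) on the 6 cortical arrays and between 8.31 and 10.42 (median 9.38) on the 24 hypothalamic ones. The groups did not overlap, and the difference was 3.05 ± 0.08 (SE, adjusted p = 1.28e-40). Arc ran from 9.37 to 11.19 (median 10.02) against 7.26 to 8.43 (median 7.73), also without overlap, a difference of 2.39 ± 0.11 (adjusted p = 1.08e-27). Nr4a1 differed by 1.91 ± 0.09, Junb by 1.59 ± 0.09 and Egr2 by 1.40 ± 0.09, and of these only Egr2 had overlapping arrays. By its other probe set Egr2 was under 2-fold, at 0.92 ± 0.09. Fos (0.84), Fosb (0.54), Egr3 (0.32), Egr4 (0.53) and Npas4 (0.94) were under 2-fold. By its other probe set Egr3 lay at 10.66 to 11.87 in isocortex and 4.80 to 6.66 in hypothalamus, a difference of 5.85 ± 0.14 (adjusted p = 9.54e-43).

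Against thalamus, the same isocortical arrays gave 5 genes higher and 0 lower, where 2.47% and 1.86% of all genes were. Egr1 was higher by 2.27 ± 0.09, Junb by 1.97 ± 0.10, Nr4a1 by 1.75 ± 0.10, Arc by 1.68 ± 0.13 and Egr2 by 1.51 ± 0.11. In these 5 genes, already picked by their call, no thalamic array reached an isocortical one. The share of all genes without such overlap was not counted. The other probe sets gave other calls for 2 genes: Egr2 was under 2-fold, at 0.90 ± 0.10, and Egr3 was higher by 5.89 ± 0.15 (adjusted p = 3.26e-40), where the probe set taken gave 0.42 ± 0.05. At any fold 9 of the 10 passed, against 38.8% of all genes. Fos did not: its cortical arrays ran from 9.42 to 10.15 and its thalamic ones from 8.85 to 9.98, and the difference of 0.25 ± 0.14 had an adjusted p of 0.153. Within the thalamus Arc ranged from 7.70 in the mediodorsal nucleus to 9.10 in the ventral anterior and ventrolateral nuclei. The 2 comparisons share the isocortical arrays.

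Other genes of the pathway were read in the same comparisons from lists of 21 further immediate early transcription factors (21 measured), 28 effectors and feedback genes (26 measured) and 21 upstream kinases, channels and factors (16 measured). Against hypothalamus, where 2.69% of all genes were higher and 2.06% lower, 2 of the 21 further factors were higher in isocortex and 0 lower: Klf10 by 2.25 ± 0.10 and Ier5 by 2.14 ± 0.07. The median of the list was 0.05, so the list as a whole lay near the median of all genes. Of the 26 effectors, 5 were higher and 1 lower, with a median of 0.44: Nrn1, a growth-promoting surface protein, was higher by 3.02 ± 0.10, Homer1, a scaffold of glutamate receptors, by 2.54 ± 0.09 and Dusp6, a phosphatase of ERK, by 2.09 ± 0.08, while Scg2, a secretory granule protein, was lower, at -1.91 ± 0.08. Of the 16 upstream genes, 6 were higher and 0 lower, led by Mef2c, an activity-dependent transcription factor, at 3.91 ± 0.09. Against thalamus, where 2.47% and 1.86% of all genes were, the further factors gave 2 higher and 1 lower, the lower one being Jun at -1.07 ± 0.09. Markers of cortical and hippocampal projection neurons differ between the same groups, with Slc17a7 at 10.89 in motor cortex and a median of 7.29 over the 52 regions; their part in the results was not tested.

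**Figure D3:**
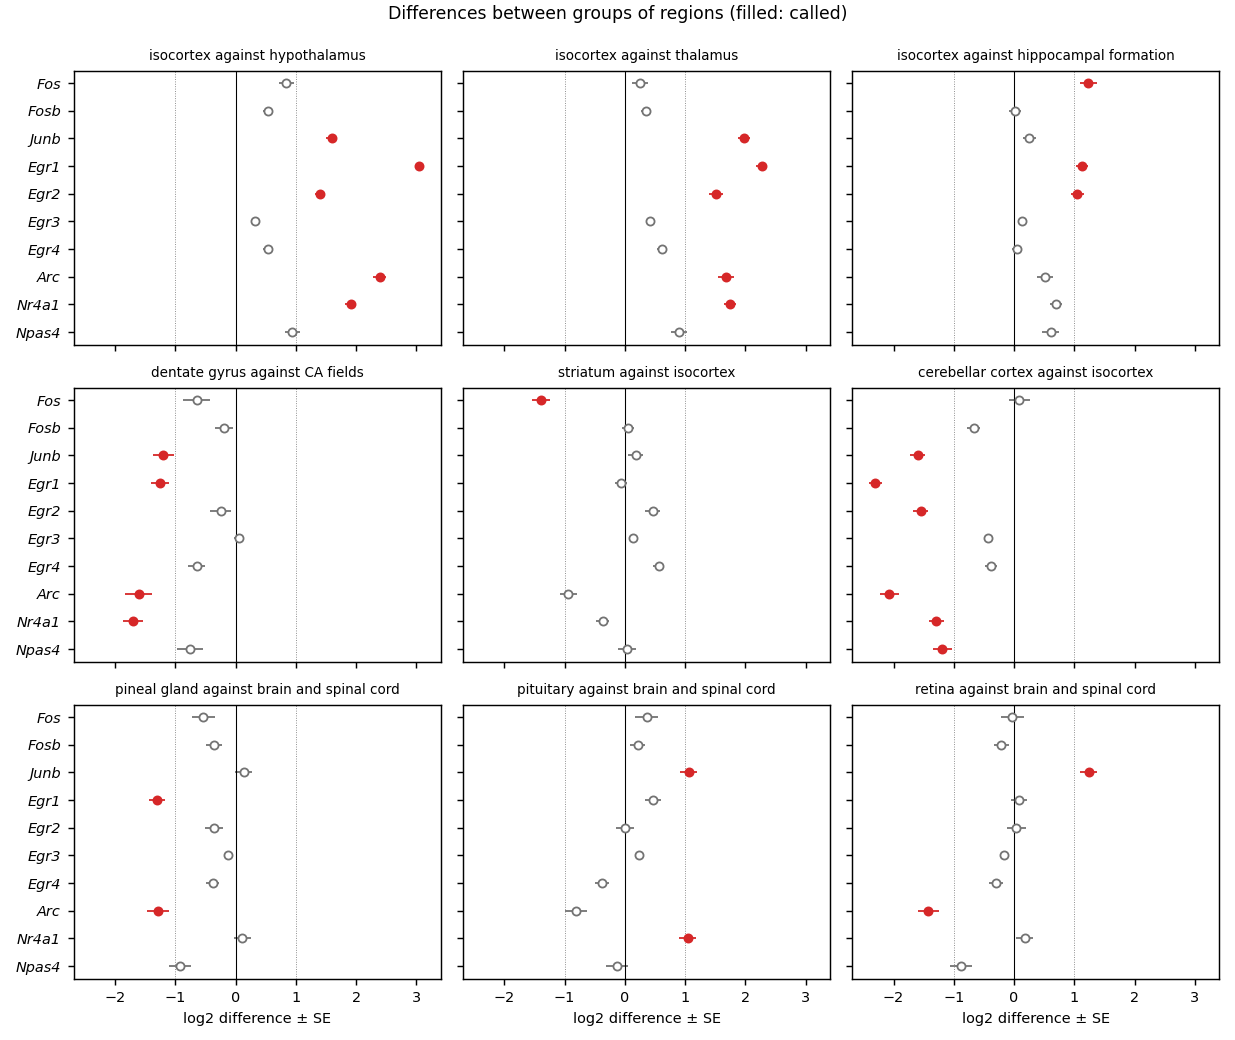
Differences in region-group means on the log2 scale, with SE, for the 10 genes in 9 comparisons. Filled points passed the adjusted p of 0.05 and the 2-fold threshold, drawn as dotted lines, such as Egr1 at 3.05 for isocortex against hypothalamus and Fos at -1.39 for striatum against isocortex.

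Against the hippocampal formation, 3 of the 10 genes were higher in isocortex and 0 lower, where 0.973% and 0.737% of all genes were. Fos was higher by 1.23 ± 0.14 (adjusted p = 1.05e-10), and its hippocampal arrays, 7.72 to 9.28, did not reach the cortical ones. Egr1 was higher by 1.13 ± 0.10 and Egr2 by 1.05 ± 0.11, and for both the arrays overlapped. By its other probe set Egr2 was under 2-fold, at 0.76 ± 0.11. The hippocampal regions themselves were far apart: Egr1 means ran from 10.64 to 12.53 and Nr4a1 means from 9.51 to 11.97. At any fold 6 of the 10 passed, against 33% of all genes. With region means taken as the samples, 0 of the 3 passed, where 0.352% of all genes were called higher and 0.0934% lower, Fos with an adjusted p of 0.0957, Egr1 of 0.329 and Egr2 of 0.224. Egr2 was under 2-fold without replicate 1 of the hippocampal regions, at 0.96, or replicate 2 of the isocortex, at 1.00.

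Inside the hippocampus, 4 of the 10 genes were lower in the dentate gyrus than in the CA fields and 0 higher, where 1.65% and 0.676% of all genes were. Nr4a1 read 9.39 and 9.63 in dentate gyrus, 11.77 and 12.16 in CA1 and 10.54 and 10.35 in CA2 and CA3. No array of the dentate gyrus reached the CA fields, and the difference was -1.70 ± 0.17 (adjusted p = 1.33e-12). Arc read 8.74 and 8.88 in dentate gyrus against 9.61 to 11.27 in the CA fields, a difference of -1.61 ± 0.22. Egr1 differed by -1.25 ± 0.15 and Junb by -1.20 ± 0.17, again without overlap. At any fold 7 of the 10 passed, against 27.8% of all genes. Egr3 gave 0.05 ± 0.08 (adjusted p = 0.747) and, by its other probe set, -0.20 ± 0.26 (adjusted p = 0.614). Among the further factors 2 of 21 were higher in dentate gyrus and 0 lower: Jun, which pairs with Fos proteins, read 10.86 against 8.51, a difference of 2.34 ± 0.14, and Cebpb differed by 1.25 ± 0.12. Of the effectors, 0 were higher and 4 of 26 lower, the ERK phosphatase Dusp6 by the most, -1.47 ± 0.16, with the synaptic pentraxin Nptx2 at -1.41 ± 0.15. The AP-1 genes Jun and Junb thus lay on opposite sides of this comparison.

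Between striatum and isocortex, 1 of the 10 genes was lower in striatum and 0 higher, where 2.29% and 1.57% of all genes were. That gene was Fos, at 7.69 to 8.87 (median 8.28) on the 6 striatal arrays and 9.42 to 10.15 (median 9.66) on the 6 cortical ones. The groups did not overlap, and the difference was -1.39 ± 0.15 (adjusted p = 8.88e-12). Egr1 stood at 11.74 to 12.80 in striatum and 12.02 to 12.78 in isocortex, a difference of -0.06 ± 0.10 (adjusted p = 0.709). Egr4 was higher by 0.56 ± 0.09 and Egr2 by 0.46 ± 0.12, and Arc differed by -0.94 ± 0.14, all past the adjusted p and under 2-fold, with overlapping arrays. By its other probe set Egr2 did not pass, at 0.20 ± 0.12 (adjusted p = 0.219 from limma). With region means as the samples limma passed Fos (adjusted p = 0.00911) but not Egr4 (0.153), Egr2 (0.727) or Arc (0.136). At any fold 6 of the 10 passed, against 34.1% of all genes. Without replicate 2 of the striatum or replicate 1 of the isocortex, Arc was called too, at -1.11 and -1.28, which made 2 genes. Within the striatum the olfactory tubercle stood below the caudate putamen for Junb, 7.67 against 9.27 in the lateral part as means, and for Nr4a1, 9.99 against 11.57. Of the effectors, 1 of 26 was higher in striatum, Rgs2 by 1.36 ± 0.10, and 2 lower, Nrn1 at -4.56 ± 0.13 and the phosphatase Dusp4 at -1.46 ± 0.11.

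In cerebellar cortex 6 of the 10 genes were lower than in isocortex and 0 higher, where 3.62% and 3.4% of all genes were. Egr1 lay at 9.98 to 10.35 (median 10.02) on the 4 cerebellar arrays, below all cortical arrays, a difference of -2.30 ± 0.11 (adjusted p = 1.53e-26). Arc differed by -2.07 ± 0.16, Junb by -1.60 ± 0.13, Egr2 by -1.55 ± 0.13, Nr4a1 by -1.29 ± 0.12 and Npas4 by -1.19 ± 0.16. None of these 6, already picked by their call, overlapped between the groups, and the share of all genes without overlap was not counted. At any fold 9 of the 10 passed, against 56.8% of all genes. Of these, only Egr4 did not pass in limma with region means as the samples (adjusted p = 0.104). Npas4 was under 2-fold, at -0.90, without replicate 2 of the isocortex. By the other probe sets Egr3 was lower too, at -6.51 ± 0.19 (adjusted p = 2.18e-37) where the one taken gave -0.43 ± 0.06, and Egr2 was still lower, at -1.07 ± 0.13, which makes 7 genes. Fos again stood apart, at 10.11 and 9.39 in the vermis and 10.11 and 9.52 in the lobe, a difference from isocortex of 0.09 ± 0.17 (adjusted p = 0.679). Of the effectors 6 of 26 were lower and 1 higher, with the kinase Plk2 at -2.65 ± 0.08 and the phosphatase Dusp5 at 2.16 ± 0.10. Of the 16 upstream genes 3 were lower and 2 higher: the calcium-dependent kinase Camk2a gave -3.55 ± 0.16 and its nuclear relative Camk4 gave 1.54 ± 0.13.

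The suprachiasmatic nucleus, the light-entrained clock, had 0 of the 10 genes called against the other hypothalamic regions, where 2.03% of all genes were higher and 0.22% lower. Limma's adjusted p alone passed 2, Fos and Egr3, against 47.7% of all genes. Egr3 differed by -0.20 ± 0.07, with overlapping arrays. Fos read 9.49 and 9.90, against 8.16 to 10.08 (median 8.66) on the 22 other arrays, a difference of 0.92 ± 0.20 (adjusted p = 0.000127). Both of its arrays lay inside the range of the others, and without replicate 1 of the nucleus 1 gene was called, Fos at 1.12. Among the effectors 3 of 26 were higher there, Dusp4 by 2.56 ± 0.15, the neuropeptide precursor Vgf by 1.35 ± 0.13 and Gadd45g by 1.28 ± 0.12, and 1 was lower, Nrn1 at -1.53 ± 0.17. The preoptic area and basal forebrain also had 0 of the 10 called against the rest of brain and spinal cord, with 1.62% of all genes higher and 0.148% lower. Limma's adjusted p alone passed 3, Egr1, Egr4 and Arc, against 28.9% of all genes. Its Arc arrays, 7.93 and 8.00, gave a difference of -0.62 ± 0.18 (adjusted p = 0.00537). They lay inside the range of the other arrays, 7.26 to 11.27 (median 8.33), as did its Egr1 and Egr4 arrays. The control values of the preoptic arrays were not usable, so their quality was not compared with that of the other regions.

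The tissues outside the brain were compared with the 49 regions of brain and spinal cord. In the pineal gland 2 of the 10 genes were lower, Egr1 (8.92 and 9.10, a difference of -1.31 ± 0.13) and Arc (-1.29 ± 0.18), where 7.78% of all genes were lower and 7.52% higher. At any fold 7 of the 10 passed there, against 57.3% of all genes, 6 in the pituitary, against 56.4%, and 5 in the arrays labelled retina, against 73%. In the pituitary 2 were higher, Junb (8.42 and 8.18, a difference of 1.06 ± 0.14) and Nr4a1 (11.12 and 10.74, 1.04 ± 0.14), where 6.1% of all genes were higher and 7.24% lower. Without replicate 1 of the pituitary neither passed 2-fold, with 0.94 and 0.85, and with arrays centred on 1 median Nr4a1 fell just under it. In the arrays labelled retina Junb was higher, by 1.24 ± 0.14, and Arc lower, at -1.42 ± 0.18, where 13% of all genes were higher and 8.46% lower. Junb read 7.98 on 1 of these arrays and 8.99 on the other, and without replicate 2 its difference was 0.73. By its other probe set Egr3 was lower in all 3 tissues, at -2.31 ± 0.21 in the pineal gland, -1.94 ± 0.21 in the pituitary and -1.94 ± 0.21 in the arrays labelled retina, where the probe set taken gave -0.13, 0.24 and -0.16. The 6 results called with the probe sets taken lay inside the range of brain regions except Arc in the pineal gland and in the arrays labelled retina, and with region means as the samples 0 of these 6 passed (adjusted p from 0.202 to 0.554). In that fit 4.81% of all genes were lower and 6.15% higher in the pineal gland, 4.84% higher and 3.91% lower in the pituitary and 11.8% higher and 5.99% lower in the arrays labelled retina.

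Across the 52 region means most of the 10 genes varied together, with a median Pearson r of 0.69 over their 45 pairs, against 0.00 over all gene pairs. Points share array type, laboratory and the cell mix of each region, so the values are a description. Junb and Nr4a1 were the closest pair, at 0.88, followed by Egr2 and Egr4 at 0.86 and Egr1 and Nr4a1 at 0.85. Fos was the exception: its r with the other 9 genes ran from -0.23 (Egr3) to 0.32 (Arc), with a median of 0.16. The 36 pairs without Fos ran from 0.45 to 0.88. With Egr3 read by its other probe set those 36 pairs ran from 0.59 to 0.88 and the pairs with Fos from -0.15 to 0.32. The median over the 45 pairs was then 0.73. By Spearman's rho the median over all pairs was 0.56, and for Fos 0.05; without the olfactory bulb Pearson's medians were 0.68 and -0.06.

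**Figure D4:**
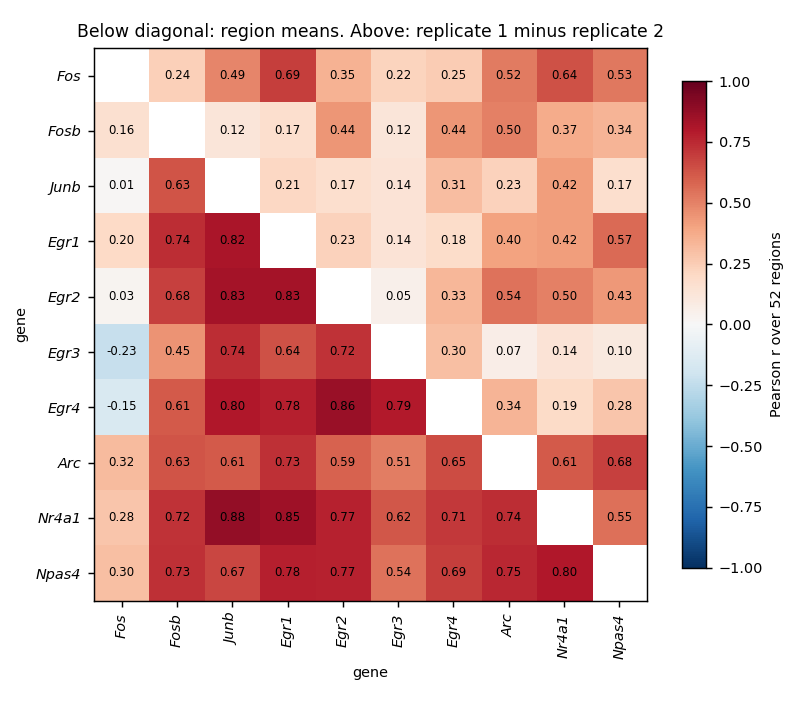
Pearson r for each pair of genes over the 52 regions, for region means below the diagonal and for the difference of replicate 1 minus replicate 2 above it. Along the left edge Fos is pale below the diagonal (-0.23 to 0.32), while along the top it is positive (0.22 to 0.69).

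The genes closest to each pattern outside the list were taken from 6855 genes with at least a median level and a 2-fold range. Homer1, which is itself activity-induced in its short form, was closest to Egr1 (r = 0.86 over 52 regions) and second for Egr4 (0.85). The potassium channel gene Kcnh3 was closest to Fosb (0.89), Bahd1 to Junb (0.87), Grasp, a postsynaptic scaffold protein, to Egr2 (0.82), Skil to Egr3 (0.78), Cdk17 to Egr4 (0.85), Hivep2 to Arc (0.83), Sec14l1 to Nr4a1 (0.83) and Smarcd1 to Npas4 (0.85). The clock gene Per1, which has cyclic AMP response elements of its own, was the third for Nr4a1 (0.82). For Fos the closest, Sh3bp5l, reached 0.66. By its other probe set Egr3 was closest to genes of the dendrite and spine: Icam5 (0.95), Ddn (0.94) and Synpo (0.94).

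The 2 arrays of a region differed more for these genes than for most others. The replicate SD, pooled over the 52 regions, was above the 90th percentile of all genes in 8 of the 10 (10% of all genes are, by definition), with Fos at the 99.2 percentile, Npas4 at 99.0 and Arc at 98.8. Their values were 0.28, 0.27 and 0.26, against a median of 0.12 over all genes. Without the olfactory bulb, 5 of the 10 were still above, Fos at the 97.7 percentile. Egr3, by the probe set taken, lay at 17.8. The differences were shared among the genes: replicate 1 minus replicate 2 gave a median r of 0.33 over the 45 pairs, all 45 above 0, against 0.01 over all gene pairs. Here Fos was not the exception, with a median of 0.49 and its highest r with Egr1, 0.69. Without the olfactory bulb the median over all pairs was 0.18, with 40 of 45 above 0.

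The olfactory bulb held the largest shared difference. In its anterior part replicate 1 read above replicate 2 for all 10 genes, and in its posterior part for 9 of 10. Egr3, by the probe set taken, was the exception at -0.04. Fos read 10.42 and 9.55 in the anterior part and 10.87 and 9.58 in the posterior. Arc read 10.29 and 9.22, then 10.58 and 9.57, and Npas4 7.89 and 6.88, then 8.20 and 6.91. Ranked by the mean of the 2 parts' differences among all 18193 genes, Npas4 (1.15), Fos (1.08), Arc (1.04), Nr4a1 (0.93) and Egr2 (0.86) held ranks 1 to 5. Junb was rank 12, Egr1 rank 18, Fosb rank 26, Egr4 rank 101 and Egr3 rank 8515. Only 2 genes of all differed at least 2-fold in the same direction in both parts, 0.011% of genes, and they were Arc and Npas4. This ranking was made after the values had been seen and is given without a test, and whether the 2 parts come from the same animals is not stated.

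**Figure D5:**
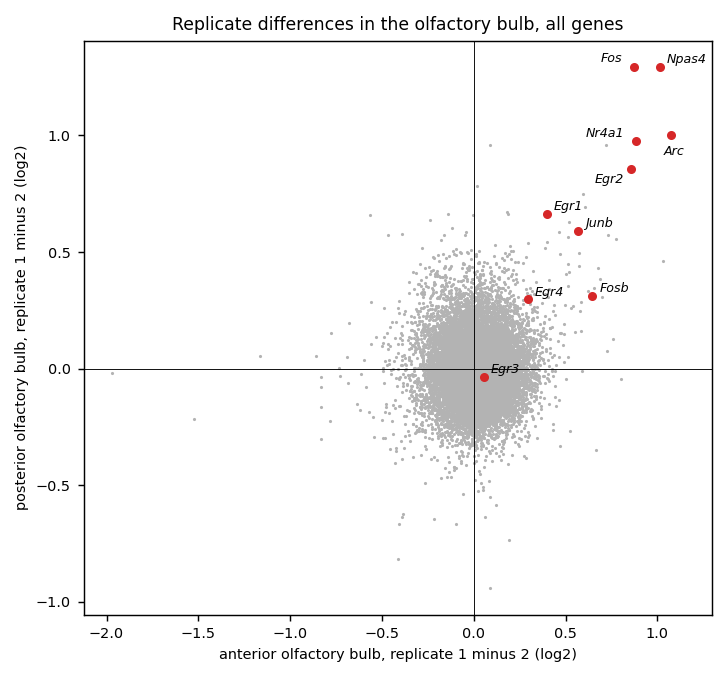
Replicate 1 minus replicate 2 (log2) for all 18193 genes in the anterior (x axis) and posterior (y axis) olfactory bulb, with the 10 genes in red. Npas4, Fos, Arc, Nr4a1 and Egr2 lie at the upper right, at 0.86 or more on both axes. Egr3, by the probe set taken, lies in the cloud.

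Other genes moved with them in the bulb, though less. Of the 21 further immediate early factors, 16 were higher in replicate 1 in both parts and 3 lower, with medians of 0.14 and 0.16, and Ier2 held rank 11. Of the 26 effectors, 18 were higher in both parts and 1 lower. The 16 upstream genes gave 3 higher and 5 lower, with medians of -0.05 and -0.04. Over all genes 25.3% were higher in replicate 1 in both parts and 23.8% lower. Of 8 meningeal and fibroblast markers, 6 were higher in replicate 1 in both parts and 0 lower, with medians of 0.24 and 0.19, and Col3a1 held rank 9 with 0.67. The 7 endothelial and pericyte markers gave 4 and 0, with medians of 0.10 and 0.05, while 6 astrocyte markers were split 2 and 2 and 6 microglial ones 1 and 1. The part of these cell types in the result was not tested. Over all genes only 6 differed 2-fold in the anterior part and 3 in the posterior.

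In motor cortex 7 of the 10 genes, and in cingulate cortex 9 of the 10, read higher in replicate 2. Arc read 10.14 and 11.19 in motor cortex and 9.37 and 10.38 in cingulate cortex, so that replicate 1 minus replicate 2 was -1.05 and -1.01. Npas4 gave -0.87 and -0.67, and Fos -0.38 and -0.34. Junb went the other way in both areas, at 0.09 and 0.60, and Egr3 (0.13 and -0.38) and Egr4 (0.32 and -0.27) differed in sign between them. These arrays differed more in general than those of the bulb: 20 genes differed 2-fold in the same direction in both cortical areas, 0.11% of genes, and Arc was rank 6 from the replicate 2 side. Of all genes 38.2% were higher in replicate 2 in both areas and 24.1% in replicate 1, and the differences of the 2 areas had an r of 0.52 over all genes. Of 5 projection-neuron markers 4 were higher in replicate 2 in both areas and 0 in replicate 1, with medians of -0.36 and -0.12, and of the 16 upstream genes 10 and 4, with medians of -0.12 and -0.22. The 5 oligodendrocyte markers had medians of -0.15 in motor and 0.81 in cingulate cortex. The part of these markers in the result was not tested. In the cerebellum Fos alone of the 10 differed by more than 0.5 in both parts, by 0.71 in the vermis and 0.59 in the lobe, and Nr4a1 by 0.51 and 0.32. Egr2 in piriform cortex, at 6.88 and 8.03, was the largest single difference of that gene. These regions, too, were singled out after their values had been seen. The standard deviation of region means was 1.23 for Egr1, 6.65 times its replicate SD of 0.18, the highest such ratio of the 10 by the probe sets taken, and Fosb had the lowest, 1.93. Egr3 gave 2.0 by the probe set taken and 8.2 by its other one, whose SDs were 2.57 between regions and 0.31 between replicates.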

How the data were processed

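The series holds 104 Affymetrix arrays, 2 for each of 52 regions. The authors deposited log2 expression values from RMA, per the submitters' processing notes, whose version is not given in the sources used here. They run from 3.88 to 15.15 and were used as deposited. Of 45101 probe sets, 34945 matched 1 gene symbol, 932 several and 9160 none in the platform annotation, and 64 were controls. The probe set with the highest mean stood for a gene with several, which was so for 9010 of 18193 genes. The spread between arrays, 2 per region, limits the precision.

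A model with a mean for each region was fitted to all genes with limma 3.58.1 in R 4.3.3 (52 residual degrees of freedom), and comparisons are contrasts of region means, with p-values adjusted by Benjamini-Hochberg over 18193 genes. Because the spread is that between arrays of a region, the comparisons speak of these regions and not of others of the kind; region means as the samples are the alternative. On simulated data for isocortex against hypothalamus with 18193 genes, 100 of 100 planted log2 differences of 1.5 and 100 of 100 of 2 were recovered, with 0 false calls. The simulated noise was independent between arrays, without spread among the regions of a group, and no difference was planted near the 2-fold threshold. It therefore cannot say how reliable calls near that threshold are. All 10 genes are named; from the other lists, the largest difference in each direction and up to 4 more. The genes, lists and region groups were chosen with earlier results of these data known. Other settings tried were the replicate number as a block, each replicate left out, arrays centred or quantile-normalized, dim genes removed, probe sets averaged, no fold threshold, a trended robust variance and region means used as samples; those of the Egr3 probe set, the olfactory bulb and the lateral hypothalamus were added after the data had been seen. Promoters come from RefSeq, build GRCm38.p6.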

Additional observations from a re-analysis of the deposited data

How the results depend on the processing

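Of the gene-level results under all alternatives, 1441 kept their side of the threshold, 61 passed it in addition, 17 lost it and 1 reversed. These include ranges among regions, which have no direction. Dropping the fold threshold could only add calls, and a gene called in neither setting counts as having kept its side. The tally is therefore no measure of how robust the calls are. A change of sign counted as a reversal only for a gene called in either setting. The reversal is Egr3 in the pituitary, 0.24 by the probe set taken and -1.94 by the other (adjusted p = 2.96e-12 from limma). The cause was not tested. By its other probe set Egr3 also changed sign, without a call, in dentate gyrus (0.05 to -0.20) and suprachiasmatic nucleus (-0.20 to 0.39). With any fold allowed, the genes called were 10 for isocortex against hypothalamus, 9 against thalamus and 6 against hippocampal formation, 7 for dentate gyrus, 6 for striatum, 7 for pineal gland, 6 for pituitary, 5 for the arrays labelled retina, 2 for suprachiasmatic nucleus and 3 for preoptic area. With dim genes left out only 5 of the 10 genes are tested, and the counts were 3 for isocortex against hypothalamus, 3 against thalamus, 3 for cerebellar cortex, 1 for pituitary, 1 for the arrays labelled retina and 4 for the F test. With region means as the samples they were 0 for hippocampal formation, pineal gland, pituitary and the arrays labelled retina. Array centring gave 1 for pituitary, Nr4a1 falling just under 2-fold. Leaving out a replicate gave 1 to 2 for striatum, 0 to 2 for pituitary, 1 to 2 for the arrays labelled retina and 0 to 1 for suprachiasmatic nucleus, and stayed within 1.5 times the count elsewhere. The median r among the genes was 0.56 by Spearman's rho, and the ranges of the other probe sets were 1.87 for Egr2 and 7.13 for Egr3.

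The replicate numbers were not taken to pair the arrays: over 1326 pairs of regions, same-numbered deviations had a median r of 0.00 (-0.50 to 0.52), with 24.7% of pairs over 0.1. The highest, 0.52, was that of motor with cingulate cortex, both in the isocortex group, so these arrays do share deviations by number. The replicate block gave 5 genes for isocortex against hypothalamus and 5 against thalamus, 3 against hippocampal formation, and moved no count by over 1.5 times.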

Other observations

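The 21 further immediate early factors were also read in the tissues outside the brain. In the arrays labelled retina 9 of 21 were higher than in brain and spinal cord and 0 lower, where 13% of all genes were higher: the acute-phase factor Cebpd by 3.54 ± 0.14, the endothelial and epithelial factors Klf4 by 3.36 ± 0.10 and Klf2 by 2.61 ± 0.09, Ier3 by 2.33 ± 0.13 and Ier2 by 2.06 ± 0.11, with adjusted p-values of 3.71e-25 or less from limma. Ccn1, a matrix protein of the effector list, was higher by 2.88 ± 0.07. These SEs and p-values rest on a spread shared over all regions. The 2 arrays labelled retina differed 2-fold from each other for 4.6% of genes, so the values may overstate the precision. The 7 endothelial and pericyte markers had a mean level of 10.60 in these arrays, the highest of the 52 regions, and the 8 meningeal and fibroblast markers 11.50, also the highest; their part in the result was not tested.

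In the pituitary 6 of 21 were higher and 1 lower, where 6.1% and 7.24% of all genes were: the antiproliferative gene Btg2 by 2.80 ± 0.10, Cebpd by 2.03 ± 0.14 and Klf10 by 1.72 ± 0.15 were higher and Jun lower, at -1.14 ± 0.12. In the pineal gland 4 were higher and 1 lower, with Crem, whose short product represses cyclic AMP responses, higher by 1.96 ± 0.08 and Btg2 by 1.80 ± 0.10, and Ier5 lower at -1.10 ± 0.10, where 7.52% of all genes were higher and 7.78% lower. The meningeal markers had a mean level of 10.46 in the pineal gland, the second highest of the 52 regions, and the endothelial ones 9.23, the fourth; their part in the result was not tested. Vgf, which is induced by activity in neurons, was lower in the pineal gland at -4.03 ± 0.13, in the pituitary at -2.86 ± 0.13 and in the arrays labelled retina at -3.73 ± 0.13.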
